A study of Mus musculus with 4 samples.

Results

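Cxcl12 was 1 of 8440 target genes listed in the chimeric reads of AGO2-CLASH libraries from mouse mesangial cells (MMC), and every read whose listed target gene was Cxcl12 is described here. There were 19 such reads of 15 distinct sequences, among 36318 chimeric reads of 29067 distinct sequences in 4 libraries. The gene was chosen by its reads per genotype, because among reads with a miRNA alignment of at least 16 nt it was the 1 target gene of 353 tested (0.283%) with an adjusted p-value under 0.05 between the genotypes (edgeR's quasi-likelihood test). Its difference between the genotypes is therefore given as a description, without a test.

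MMC are contractile cells of the kidney glomerulus. They were primary cultures from wild type (WT) C57BL/6J mice and from mice of the same strain lacking miR-379 in all cells after CRISPR-Cas9 deletion, named miR-379KO, with 2 libraries of each genotype (A and B) and no other treatment or age given in the labels. In AGO2-CLASH, RNAs crosslinked to AGO2 by UV light are immunoprecipitated with it and joined by T4 RNA ligase, so that a chimeric (hybrid) read carries a piece of a miRNA and a piece of an RNA held beside it. Nothing in the labels says that the 2 libraries of a genotype came from separate mice or cultures. miR-379 itself was listed in 3 and 1 reads of WT A and B and in 0 of either miR-379KO library, and in no read of Cxcl12.

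CXCL12 (SDF-1) is a secreted chemokine that attracts and retains cells bearing the receptor CXCR4, and it is cleared by the scavenger receptor ACKR3. It is made by stromal and perivascular cells in many tissues, and in the developing glomerulus its signal to endothelial CXCR4 is needed for the capillary tuft. Splicing gives the isoforms alpha, beta and gamma, which share the first exons and differ in their last codons. A miRNA guides AGO2 to an RNA chiefly through its seed, bases 2 to 8, and a match to the seed followed by A in the target is called an 8mer.

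The gene lies on the plus strand of chromosome 6 of GRCm38, from 117168535 to 117181367. The transcript Cxcl12-202 encodes the 89 aa alpha isoform and has a 3′-UTR of 1487 nt. Cxcl12-203 encodes the 93 aa beta isoform and Cxcl12-201 the 119 aa gamma isoform, and their 3′-UTRs of 2768 and 5188 nt end within 1 nt of each other, so that a read from the shared stretch cannot be given to one of them. Of the 15 distinct reads, 12 (16 reads) had their target in the 3′-UTR shared by Cxcl12-201 and Cxcl12-203. In 2 (2 reads) it was in the 3′-UTR of Cxcl12-202, which is also exonic in the noncoding transcript Cxcl12-204. In 1 (1 read) it was in coding sequence common to all 3 isoforms.

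The reads that carry the difference between the genotypes joined miR-23a-3p or miR-23b-3p to 1 site of that shared 3′-UTR. miR-23a-3p and miR-23b-3p are paralogous miRNAs from different clusters, each beside a miR-27 and a miR-24 gene, and have the same seed. The mature miR-23a-3p (RefSeq, GRCm38.p6, chr8:84208563-84208583, plus strand) and the site on the plus strand (GRCm38, chr6:117181178-117181207) are shown 5′ to 3′, with the seed and its match in capitals.
miR-23a-3p: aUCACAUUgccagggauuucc
Cxcl12 site: ttctgtctcccagatAATGTGAaaacggtc
The match AATGTGA is followed by A, which makes the site an 8mer. It lies at chr6:117181193-117181199, 168 nt before the end of Cxcl12-201 and 5014 nt after the stop codon of Cxcl12-201 (2595 nt after that of Cxcl12-203). It is the 1 occurrence of these 7 letters, read on the transcript strand, in either of these 3′-UTRs. The 3′-UTR of Cxcl12-202 also held 1 occurrence and the noncoding Cxcl12-204 held 3. No read of miR-23a-3p or miR-23b-3p had its target at those. Among the distinct chimeric reads of other genes, 162 of 29052 (0.558%) held AATGTGA in the target segment.

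The WT libraries A and B held 16324 and 7192 chimeric reads, the miR-379KO libraries 6326 and 6476. Of these, 3 reads of WT A, none of WT B, 11 of miR-379KO A and 5 of miR-379KO B were of Cxcl12. Both miR-379KO libraries were thus above both WT libraries, although WT A was the deepest. In WT A this is a Cxcl12 share of 1.84 per 10000 chimeric reads, with a 95% Clopper-Pearson interval of 0.379 to 5.37. In WT B it was 0 of 7192, which allows a share of up to 4.17 per 10000 (3 reads). This limit, used here for every count of 0, is one-sided, and the two-sided interval drawn in the plot of shares reaches 5.13. In miR-379KO the share was 17.4 per 10000 for library A (8.68 to 31.1) and 7.72 for library B (2.51 to 18.0). These intervals cover counting error only, take each read as a separate draw, and leave out the spread between libraries. Since the reads carry no molecular identifiers, copies of 1 molecule would make the intervals too narrow. The same holds for all such intervals given here.
The mean share was 0.919 ± 1.30 per 10000 in WT and 12.6 ± 6.84 in miR-379KO (SD, n = 2). Summed by genotype, Cxcl12 had 3 of 23516 reads in WT (1.28 per 10000) and 16 of 12802 in miR-379KO (12.5), a difference of 11.2 per 10000. Without miR-379KO A the difference was 6.45.

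**Figure D1:**
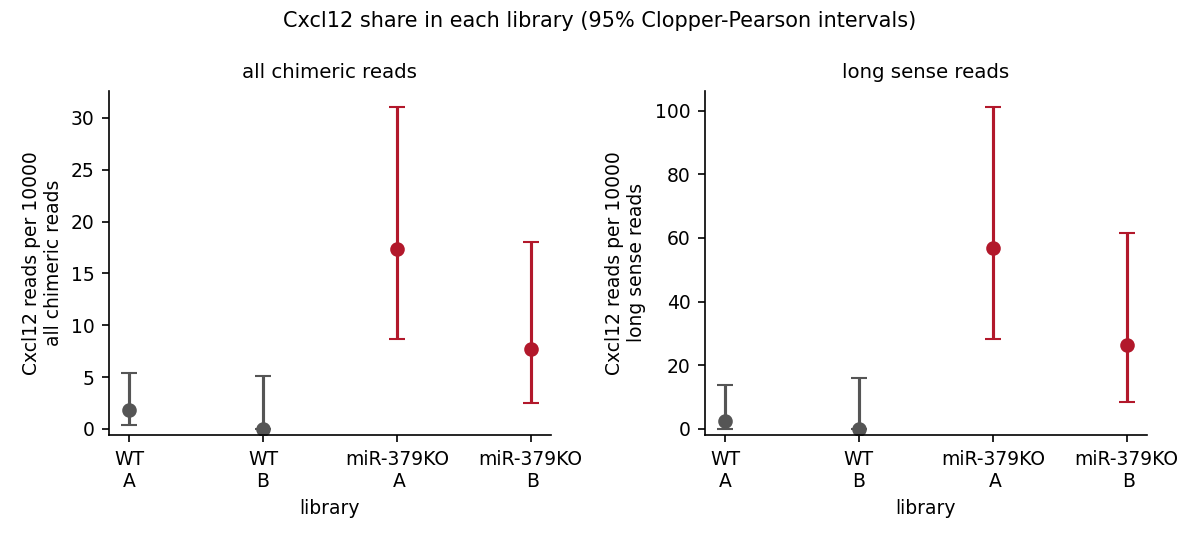
Share of Cxcl12 in each library (horizontal axis), per 10000 of all chimeric reads (left) and per 10000 long sense reads (right), with grey for WT and red for miR-379KO. Points are shares and bars are 95% Clopper-Pearson intervals; miR-379KO A is highest in both panels, at 17.4 and 56.7.

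Most chimeric reads of these libraries have a short miRNA segment, so the shares were also taken over long sense reads, those with a miRNA alignment of at least 16 nt and with miRNA and target both in sense orientation. Long sense reads made up 24.7% and 32.2% of the reads of WT A and B, and 30.7% and 29.2% of those of miR-379KO A and B. Of them, Cxcl12 had 1 of 4039 and 0 of 2313 in the WT libraries, and 11 of 1940 and 5 of 1891 in the miR-379KO libraries, A before B. All 16 miR-379KO reads and 1 of the 3 WT reads were therefore of this kind. Per 10000 long sense reads, the share was 2.48 in WT A (95% interval 0.0627 to 13.8), and the 0 of 2313 in WT B allow up to 13.0 (3 reads). In miR-379KO it was 56.7 for library A (28.3 to 101) and 26.4 for library B (8.59 to 61.6).
By total chimeric reads Cxcl12 ranked 262 of the 8440 target genes, level with others that had 19 reads, and by its 13 distinct long sense reads it ranked 176 of 3226.

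Over all target genes with at least 10 chimeric reads, edgeR's quasi-likelihood test called 0 of 686 (0%) between miR-379KO and WT at an adjusted p-value of 0.05, with 25 at an unadjusted p under 0.05. DESeq2 called 0 of 686 (0%), and 8 had an unadjusted p under 0.05. In edgeR's fit the log2 fold change of Cxcl12, given as miR-379KO over WT, was 3.34 (SE 1.11), where the median over the 686 genes was -0.25. Without WT A it was 6.18, a fitted value that rests on 0 reads in the remaining WT library and is no bound.

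The 19 reads were listed with 8 mature miRNAs, none of them with a second miRNA or a second gene. miR-23a-3p was listed with 9 reads (6 distinct), 7 of miR-379KO A and 2 of miR-379KO B. miR-23b-3p was listed with 4 reads (3 distinct), 3 of miR-379KO A and 1 of miR-379KO B. Neither was listed with Cxcl12 in WT A or WT B. The other 6 miRNAs had 1 read each. They were miR-143-3p, miR-3087-5p and miR-3098-3p in WT A, miR-130a-3p in miR-379KO A, and let-7f-5p and miR-214-3p in miR-379KO B.
No distinct sequence occurred in more than 1 library. Of the 15, 12 were counted once and the most frequent, a miR-23a-3p read of miR-379KO A, was counted 3 times. The difference of 11.2 per 10000 became 8.88 without that sequence, and 10.4 with each distinct sequence counted once. No 2 of the 15 were within 2 edits of each other or contained one another. With the reads of miR-23a-3p and miR-23b-3p left out of every gene, each genotype was left with 3 Cxcl12 reads, and the difference was 1.07 per 10000 (2.35 in miR-379KO against 1.28). With all reads of 1 gene and 1 seed that overlapped on the target counted once per library, Cxcl12 counted 3 and 0 in WT A and B, 2 and 3 in the miR-379KO libraries, and the difference was 4.25 per 10000. Most of the excess in miR-379KO thus came from 1 site, seen through 9 sequences in 2 libraries.

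**Figure D2:**
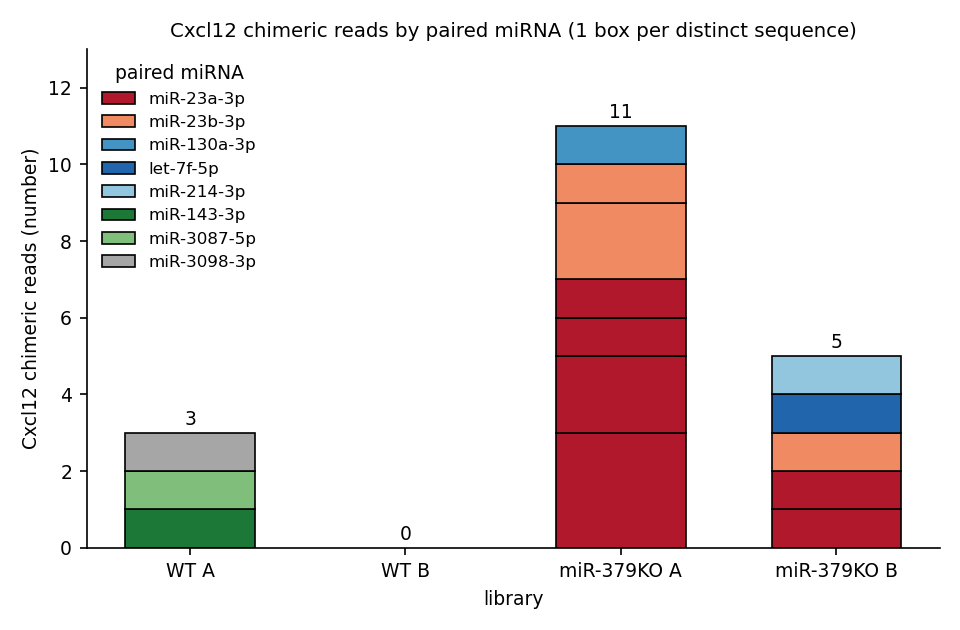
Cxcl12 chimeric reads (vertical axis, number) in each library, with 1 box per distinct sequence and the colour giving the paired miRNA. Red and orange boxes (miR-23a-3p and miR-23b-3p) make up 10 of the 11 reads of miR-379KO A and 3 of the 5 of miR-379KO B, and none of the 3 reads of WT A.

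The 9 distinct reads at the miR-23 site held 13 of the 19 Cxcl12 reads (68.4%). In miR-379KO A there were 6 distinct sequences with 10 reads, and in miR-379KO B 3 with 3. In all 9 the miRNA came first and was aligned from base 1 to base 21 in sense, without mismatch in 8 and with 1 mismatch in a miR-23b-3p read of miR-379KO A. The target piece followed after 0 to 3 nt. Of the 7 reads with bases between the pieces, 5 had only bases that continue the Mir23a or Mir23b gene past the aligned 21 nt. The target pieces were 38 to 82 nt long and matched GRCm38 without mismatch.
They had 9 different start positions, from 49 nt to 7 nt before the seed match, and 3 different ends. The end was 117181225, 26 nt after the seed match, in 7 of the 9 reads and in both libraries, and 117181223 or 117181227 in the others. All 9 shared the 38 nt from 117181186 to 117181223, which hold the seed match. Where the miRNA was joined thus varied from read to read, while the far end of the target hardly did. The number of RNA molecules behind the 9 sequences was not measured.
Each of the 9 had a deposited score of 160 and a minimum free energy of -15.1, in a unit that the sources used here do not name. The values were the same for target pieces of 38 nt and of 82 nt.

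**Figure D3:**
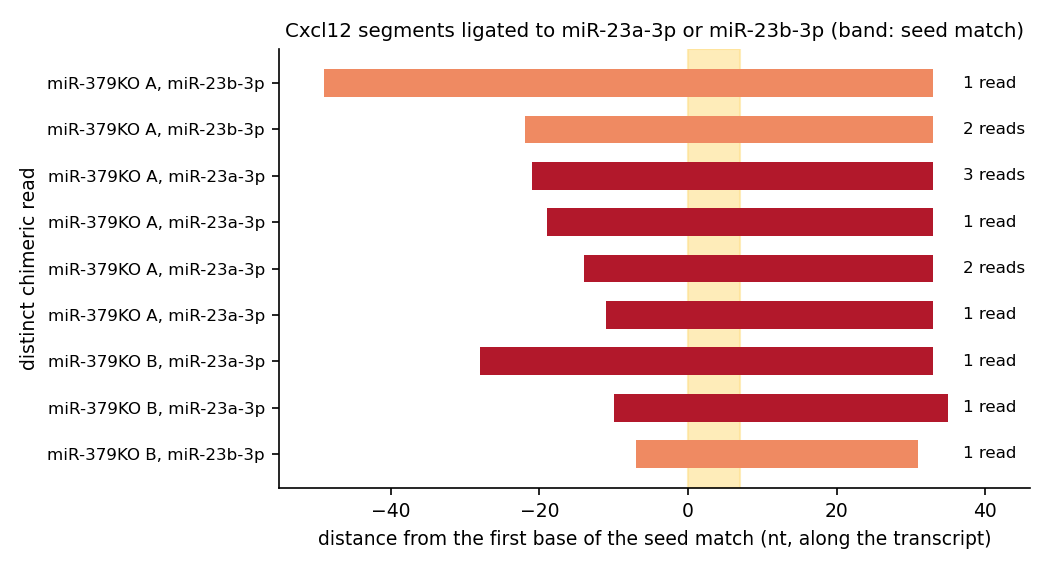
Target pieces of the 9 distinct reads that join miR-23a-3p (red) or miR-23b-3p (orange) to Cxcl12, placed by distance in nt from the first base of the seed match (yellow band), with the number of reads at the right. Starts run from -49 to -7 and 7 of the 9 pieces end at the same base.

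Long sense reads at other genes give a rough scale for these features. Sites were formed from long sense reads of 1 gene and 1 seed that overlap on the target, and 498 of 4697 sites had at least 5 distinct reads. The most common end was shared by 77.8% of the distinct reads at the Cxcl12 site, where the median over the other 497 was 33.3% and 27 had a share as high. A read listed with several genes counts at each of them, so the other sites are not independent of each other. No Cxcl12 read was listed with another gene.

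The reads of miR-23a-3p and miR-23b-3p over all targets were also counted, with the miRNA aligned in sense over at least 16 nt. WT A and B had 14 and 17, and miR-379KO A and B had 20 and 9. These are 8.58 and 23.6 per 10000 chimeric reads in WT, and 31.6 and 13.9 in miR-379KO, so that the genotypes overlapped. Cxcl12 took 0 of 14 in WT A, which allows up to 21.4% (3 reads), and 0 of 17 in WT B, which allows up to 17.6%. In miR-379KO it took 10 of 20 in library A (50%, 95% Clopper-Pearson interval 27.2 to 72.8) and 3 of 9 in library B (33.3%, 7.49 to 70.1). By distinct sequences it took 6 of 12 in library A and 3 of 9 in library B, against 0 of 11 in WT A and 0 of 13 in WT B. That left 14 and 17 reads of other targets in WT, and 10 and 6 in miR-379KO.
In all, the 2 miRNAs had 60 reads of 45 distinct sequences on 27 target genes, 15 of which had 1 read. Cxcl12 led with 13 reads of 9 distinct sequences. Next was Malat1, an abundant nuclear noncoding RNA, with 6 reads of 5 distinct sequences, 3 and 2 in the WT libraries and 1 and 0 in the miR-379KO libraries. Among the 36 distinct reads of these miRNAs with other genes, 15 (41.7%) held a match to seed bases 2 to 7 and 13 to bases 2 to 8, against 9 of 9 with Cxcl12. The chimeric reads do not measure the amount of Cxcl12 RNA, and its part in the difference was not tested here.

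**Figure D4:**
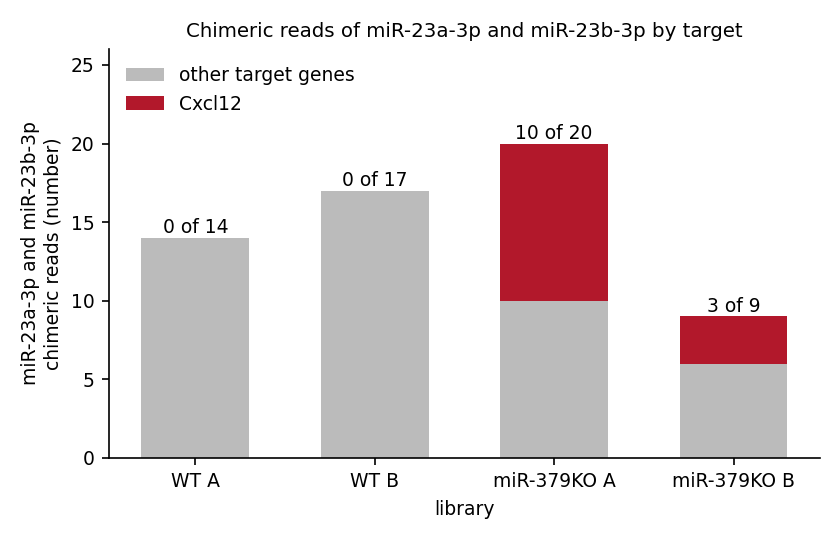
Chimeric reads of miR-23a-3p and miR-23b-3p (vertical axis, number; miRNA in sense over at least 16 nt) in each library, split into Cxcl12 (red) and other target genes (grey). Cxcl12 takes 0 of 14, 0 of 17, 10 of 20 and 3 of 9 reads.

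The other 6 reads lay at 6 separate places of the gene. The mature miRNAs found for them among the RefSeq entries used here (GRCm38.p6) are shown with the seed in capitals, and no 2 of these 5 share a seed.
let-7f-5p: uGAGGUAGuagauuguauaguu
miR-130a-3p: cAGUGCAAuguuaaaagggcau
miR-214-3p: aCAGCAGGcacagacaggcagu
miR-3087-5p: cAGGGCAGggcaagaguugag
miR-3098-3p: uUCUGCUGccugccuuuagga
With miR-23a-3p, 6 of the 8 paired miRNAs matched an entry that was used, which does not show that RefSeq lacks the others. The target strand of each deposited pairing follows, with a match to seed bases 2 to 8 in capitals where there is one.
let-7f-5p on Cxcl12: gtttatacactgctgctggctcc
miR-130a-3p on Cxcl12: gtgcccttcagattgttgcacgg
miR-214-3p on Cxcl12: gatgtcttgtctgtgcactgtctc
miR-143-3p on Cxcl12: caaacgcatgcttcatctga
miR-3087-5p on Cxcl12: tatattcatccCTGCCCTc
miR-3098-3p on Cxcl12: ctccaaattccccCAGCAGAc
The 3 of these reads from miR-379KO held no seed match, and of the 3 from WT A, 2 did.

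In miR-379KO A, miR-130a-3p, a member of the miR-130/301 family, was aligned over all 22 nt at the start of a 95 nt read. The 73 nt target was coding and joined 2 exons, 26 nt up to 117171599 and 47 nt from 117173492, so that it came from spliced RNA. Its score was 143 and its energy -20.89. This miRNA had 3 chimeric reads in all, 1 in each library but WT B.
In miR-379KO B, let-7f-5p, one of the abundant let-7 family, was aligned over all 22 nt at the start of a 78 nt read, 1 nt before a 55 nt target at chr6:117180663-117180717 in the shared 3′-UTR. Its score was 58 and its energy -19.01. It had 83 chimeric reads in all, 23 and 20 in WT A and B, 17 and 23 in miR-379KO A and B.
The second single read of miR-379KO B had the target first, 67 nt at chr6:117179267-117179333, and then bases 1 to 18 of miR-214-3p, a miRNA of the Dnm3os transcript known from fibrotic kidney. Its score was 59 and its energy -26.13, the lowest of the 15 reads. miR-214-3p had 138 chimeric reads in all, 41 and 37 in WT, 15 and 45 in miR-379KO.

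In WT A, the miR-143-3p read was 138 nt long and carried all 21 nt of the miRNA, known as abundant in smooth muscle, at its end, after a 34 nt target at chr6:117174228-117174261 in the 3′-UTR of Cxcl12-202. The 83 nt between them matched other places of GRCm38 without mismatch in 3 pieces. These were 29 nt at chr9:7941839-7941867 in Yap1, 27 nt at chr6:117174204-117174230 in Cxcl12 again and 30 nt at chr16:94388595-94388624 in Ttc3. The miRNA was thus not next to the listed target. Its score was 142 and its energy -17.92.
The miR-3087-5p read of WT A was 69 nt long, with a 36 nt target at chr6:117173779-117173814 in the same 3′-UTR. The miRNA segment was 13 nt (bases 37 to 49 of the read) and lay inside 33 nt, bases 37 to 69, that matched chr11:72926429-72926461 in Zzef1 without mismatch, directly after the target. Its score was 159 and its energy -21.62.
The miR-3098-3p read of WT A was 152 nt long, with 14 nt aligned to the miRNA in antisense and a 132 nt target at chr6:117181024-117181155 in the shared 3′-UTR. Its score was 147 and its energy -12.29. This target ends upstream of the miR-23 seed match and does not hold it. Of the 3 WT reads, then, 2 had a miRNA segment under 16 nt, and the third had 83 nt between the miRNA and the listed target.

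**Figure D5:**
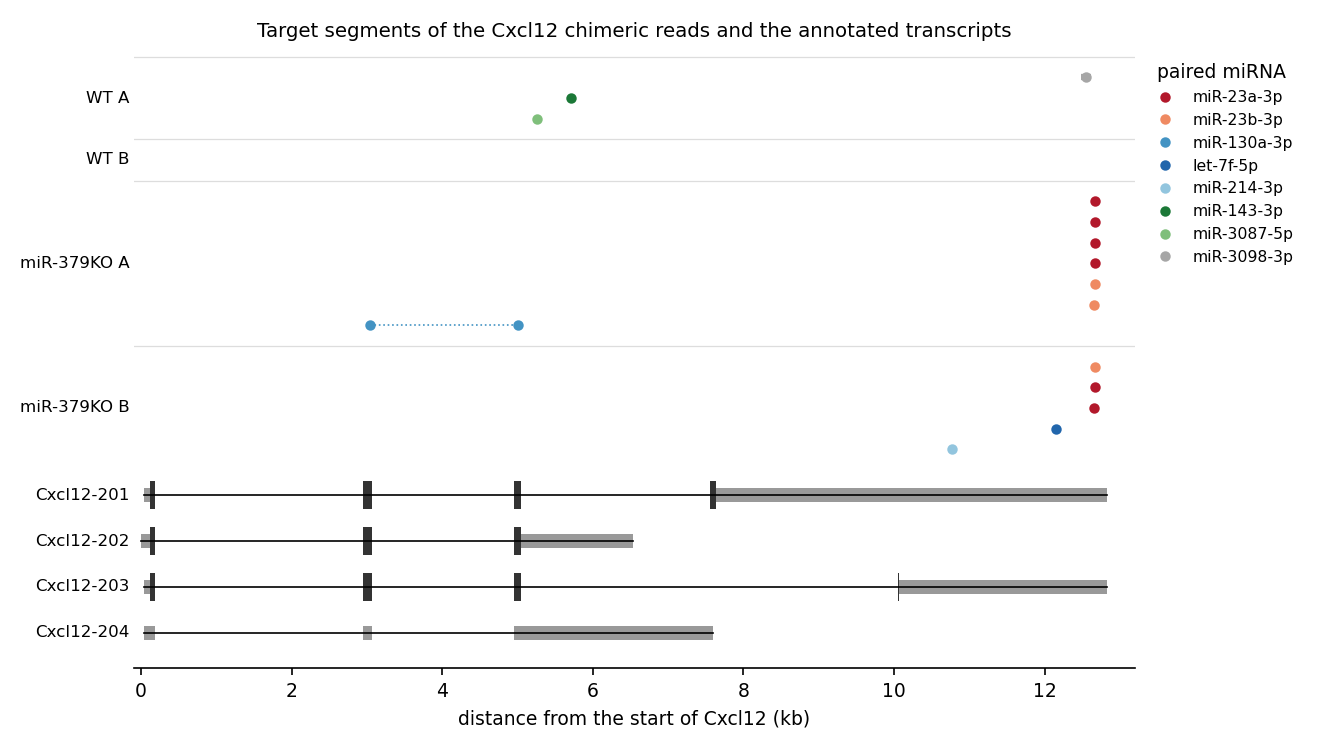
Target pieces of the 15 distinct Cxcl12 chimeric reads (dots, coloured by paired miRNA, in rows by library) above the 4 annotated transcripts (dark, coding; grey, other exon sequence), by distance in kb from the start of the gene. The 9 miR-23 reads of the miR-379KO libraries stack at the far end of Cxcl12-201 and Cxcl12-203, and the dotted read crosses an exon junction.

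The 15 Cxcl12 reads were set beside the reads of all other genes, where each distinct read was counted once for each miRNA listed with it (30136 pairs of a read and a miRNA). Those of Cxcl12 had longer miRNA segments, with a median of 21 nt against 14 nt, and 86.7% against 30.1% were at least 16 nt long. Since the gene was chosen among reads with a miRNA alignment of at least 16 nt, the choice itself favours long segments, and nothing is read from these values or from the share of long sense reads. Long sense reads made up 13 of 15, against 25.2% of the others. The miRNA came first in 80% against 50.8%. A match to seed bases 2 to 8 was held by 73.3% against 23.9%, and among long sense reads by 69.2% against 28.6%. The median score was 160 against 140. The median energy was -15.1 against -23.76, where a value nearer 0 is weaker predicted pairing. Among the Cxcl12 reads the energy ran from -26.13 to -12.29. In 44.3% of the other pairs, but in none of the 15, the miRNA segment with 10 nt of the read on each side matched GRCm38 in one stretch outside miRNA genes. In the miR-3087-5p read these added bases reach into the Cxcl12 piece. A longer miRNA segment is less likely to match in one stretch by chance. The choice of the gene thus favours the lack of such matches too, and nothing is read from it. Because 9 of the 15 reads are of 1 site, these values describe that site more than the gene, and reads are not replicates, so no test was made.

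Other genes of CXCL12 signalling were looked up in the same reads. Of its receptors, Cxcr4 had 1 chimeric read, in WT A, and Ackr3 had 0, where fewer than 3 reads in a library could not be told from none. Of 5 enzymes that cut CXCL12, Mmp14 and Mmp2 had reads, and Dpp4, Mmp9 and Cpm had 0. Mmp14, a membrane-bound matrix metalloproteinase, had 3 and 0 reads in WT A and B, and 8 and 6 in miR-379KO A and B. Mmp2, a gelatinase that MMP14 activates, had 1, 1, 3 and 2 in that order. Of 6 partners that hold the chemokine in the matrix, 5 had reads. Fn1, the gene of fibronectin, had 280, 71, 62 and 70, and Hspg2, which encodes the heparan sulfate proteoglycan perlecan, had 19, 12, 7 and 15. Sdc2, Sdc4 and Gpc1 had 1 to 3 in all, and Sdc1 had 0.
Of 12 signalling genes downstream, 7 had reads. Gnai2, an inhibitory G protein subunit, had 8, 1, 3 and 5. Arrb1, the gene of beta-arrestin 1, had 6, 3, 3 and 1, and Stat3, a transcription factor, had 9, 5, 1 and 0. Other chemokines listed were Cxcl9, with 8, 1, 5 and 0 reads, and Ccl9, Cx3cl1 and Cxcl11, with 3, 1 and 1 in all. Of the 7 of these genes with at least 10 reads, 0 passed an adjusted p-value of 0.05 in either direction (edgeR, where the background was 0%), and 1, Mmp14, had an unadjusted p under 0.05, which 25 of all 686 genes (3.64%) had. For Mmp14 the log2 fold change (miR-379KO over WT) was 3.14 (SE 1.14, edgeR adjusted p = 0.691). The medians were 0.05 for the 2 tested matrix genes and -0.18 for the 3 signalling genes, where the median over all 686 was -0.25.

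The genes whose chimeric reads followed the pattern of Cxcl12 most closely were found by Euclidean distance over the log2 CPM of the 4 libraries. Mmp14 was nearest (0.45), then Sos2 (0.96), Rusc2 (1.01), Hdlbp (1.33) and Col5a2 (1.34). Sos2, which encodes a Ras exchange factor, had 2 and 0 reads in WT A and B, and 6 and 3 in miR-379KO A and B. Rusc2 had 0, 0, 8 and 4. Its log2 fold change in edgeR's fit over all reads was 6.18, above that of Cxcl12, a fitted value that rests on 0 WT reads. Hdlbp, the gene of the RNA-binding protein vigilin, had 3, 0, 4 and 3, and Col5a2, a fibrillar collagen gene, had 6, 1, 5 and 7.
None of the 5 was listed with miR-23a-3p or miR-23b-3p in a long sense read. Of the 9 long sense reads of Mmp14, 8 were of let-7 miRNAs (4 distinct sequences), with 0 in WT and 4 in each miR-379KO library. Sos2 had 1 long sense read.

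Markers of the cell type were read from the same chimeric counts, which are not expression levels. Of 11 mesangial markers 7 had reads, summing to 347 and 112 in the WT libraries and 100 and 104 in the miR-379KO libraries, most of them of Fn1, and Acta2, the gene of smooth muscle actin, had 86. Itga8, Gata3, Pdgfra and Thy1 had 0. Of 5 podocyte markers 3 had reads, 1, 1, 0 and 3 by library. The 5 markers each of endothelium, tubule and immune cells had 0. The part of other cells in the Cxcl12 reads was not tested.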

How the data were processed

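The authors merged read pairs with pear, used Bowtie2 2.1.0 to drop those matching mouse transcripts or the GRCm38.p5 genome, and searched the rest on both strands against mature miRNAs and transcripts with blastn. Removal of aligned reads leaves chimeras enriched, and short miRNA matches can arise inside other sequence. The deposited count of each distinct read is a whole number without normalization. The deposited score and minimum free energy of each pair, and all positions, are the authors' values; the tool and the energy unit are not given in the sources used here.

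Each distinct read listed with Cxcl12 was counted once per library with its deposited count. Shares have 95% Clopper-Pearson intervals (scipy 1.17.1). Target pieces were placed on GRCm38 and its GENCODE annotation, counted from 1, and all pieces of each read were searched with blastn 2.17.0 at 100% identity. Counts per target gene with at least 10 reads went into edgeR's quasi-likelihood test (edgeR 4.0.16, R 4.3.3, TMM, genotype as the only term, Benjamini-Hochberg) and with DESeq2 1.42.0 as an alternative. The SE of edgeR's log2 fold changes was calculated back from the F statistic of this test. The test and the genome comparison were checked on simulated data. Plots were drawn with matplotlib 3.10.9.

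Named were Cxcl12, its paired miRNAs, the 5 genes with at least 10 reads nearest in log2 CPM (TMM, prior count 2), and pathway genes with a read, with some pathway genes and markers at 0 also named. Some list members are not reported here. Malat1 and the genes holding other pieces of Cxcl12 reads were named after their values were seen. The gene and all lists were chosen with earlier results of these data known. With 2 libraries each, p-values measure only the spread between these libraries.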

Additional observations from a re-analysis of the deposited data

How the results depend on the processing

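The difference in the share of Cxcl12 (miR-379KO minus WT, 11.2 per 10000) stayed above 0 in each of the 14 alternatives run, from 1.07 to 34.9. The gene was chosen by its reads per genotype and every alternative draws on the same reads, so the choice favours this sign. The difference was 34.9 when miRNA alignments under 16 nt were left out, the setting in which the gene was chosen. It was 20.2 with only alignments without mismatch or gap and 19.9 with only reads of miRNA and target both in sense. In these, in turn, the Cxcl12 reads were 1, 2 and 2 of 3 in WT and 16, 15 and 16 of 16 in miR-379KO. In 2 alternatives chosen after seeing the data, it was 1.07 without the reads of miR-23a-3p and miR-23b-3p and 4.25 with overlapping reads of 1 gene and seed counted once. Leaving out each library in turn gave 6.45 to 16.1. Without genome-contained segments it was 17.4, and with reads listed with several miRNAs or genes left out 13.9.

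The log2 fold change of Cxcl12 (3.34, edgeR) stayed above 0 in each of the 9 alternatives that gave a value. Its sign is favoured by the choice of the gene as well. The fold change was 4.82 with miRNA alignments of at least 16 nt, and 2.76 to 6.18 with 1 library left out. Without miR-379KO A no value was obtained, because Cxcl12 then had fewer than 10 reads. The count of target genes called was 0 in each alternative except miRNA alignments of at least 16 nt, where it was 1, Cxcl12 itself. The libraries of the 2 genotypes share only the letters A and B. The A minus B differences of the genotypes correlated at -0.07 across 686 genes, which are not independent replicates, and the fit with a replicate block gave a log2 fold change of 3.62 and 0 genes called.

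With 0 to 11 reads of Cxcl12 per library, and 9 to 20 of miR-23a-3p and miR-23b-3p, a share under 1.84 to 4.74 per 10000 (3 reads) could not be shown in a library.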
